A study of Mus musculus with 12 samples.

Results

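Cytosolic ribosomal protein genes encode the protein parts of the ribosomes that translate nuclear-encoded messages in the cytoplasm. They were taken as the protein-coding genes whose mouse symbol is Rpl or Rps followed by a number and its usual suffix letters, together with Rplp0, Rplp1, Rplp2 and Rpsa. Pseudogenes and the Rps6k kinases were left out. The rule gave 83 of the 38887 genes in the count table, 51 for the large ribosomal subunit and 32 for the small. Of these, 81 passed the filter on low counts and were tested. The other members were Rpl10l, a paralog of Rpl10 with 13 counts over all libraries, and Rps27, which had 0 counts in every library.

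The libraries were made from polyadenylated RNA of Ly6G+ cells of the mouse spleen, which the labels call PMN-MDSC, the polymorphonuclear class of myeloid-derived suppressor cells. Ly6G is a surface protein of mouse neutrophils. The 4 groups were mice aged 2 days, 7 days, 14 days and 6 weeks, with 3 libraries each. No strain, genotype, treatment or sex is given, nor how many mice went into a library, so p-values measure the spread between libraries, which may be technical. Library totals ran between 34495767 and 38795913 counts. All 14 neutrophil markers were detected at every age, and their summed level in CPM, counts scaled to a common normalized library total, was 76013 to 99125 CPM at 2 days, 78695 to 87956 CPM at 7 days, 95262 to 111124 CPM at 14 days and 89847 to 113045 CPM at 6 weeks. Counts on Y-linked genes were 1816 to 4010 per library at 2 and 7 days and 0 to 1 at 14 days and 6 weeks, so sex and age cannot be told apart in comparisons across that line.

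Each ribosome carries 1 copy of nearly every ribosomal protein, so a cell makes the set in matched amounts. Many of the messages start with a C followed by a stretch of C and T letters, the 5′ terminal oligopyrimidine tract, which lets the cell raise or hold back their translation together when growth signals change. Neutrophil precursors in haematopoietic tissue build ribosomes while they divide, and the mature cell is small and short-lived with little protein synthesis. Loss of 1 copy of any of several ribosomal protein genes causes Diamond-Blackfan anaemia in humans, in which red cell formation fails.

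The start of the message is shown because the oligopyrimidine tract, where a message has one, lies there. RefSeq windows of the GRCm38.p6 build were searched on the strand that reads as the message. A run was at least 8 letters, all C or T, touching the stretch between 10 bases before and 15 bases after the annotated start. It was found in 30 of the 63 members with a window (47.6%) and in 4761 of all 27025 genes with a window (17.6%). The other strand was not searched. The 30 bases around the annotated start are given for 7 members with such a run and, in lower case throughout, for Rplp0 and Rpsa, which had none in their windows. They run 5′ to 3′, and capitals mark the C and T run.
Rps18, chr17:33955651-33955680, minus strand: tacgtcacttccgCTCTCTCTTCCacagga
Rpl35, chr2:39005117-39005146, minus strand: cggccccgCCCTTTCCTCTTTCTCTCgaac
Rps6, chr4:86857353-86857382, minus strand: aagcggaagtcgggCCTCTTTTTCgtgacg
Rplp2, chr7:141447636-141447665, plus strand: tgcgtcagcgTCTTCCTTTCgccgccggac
Rpl38, chr11:114668565-114668594, plus strand: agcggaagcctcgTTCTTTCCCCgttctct
Rps10, chr17:27635230-27635259, minus strand: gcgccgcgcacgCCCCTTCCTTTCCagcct
Rps9, chr7:3704026-3704055, plus strand: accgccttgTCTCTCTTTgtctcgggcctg
Rplp0, chr5:115559452-115559481, plus strand: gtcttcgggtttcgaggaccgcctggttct
Rpsa, chr9:120127751-120127780, plus strand: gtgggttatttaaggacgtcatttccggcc
Rps18 and Rpl35 were among the members with the widest differences between ages, and Rps9 did not follow the rest of the family. Rps18, Rpl35 and Rps9 each carried such a run, whereas the windows of Rps19, Rps7 and Rpl36a held none. A run in this window is a description of the sequence only.

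The family stood highest at 7 days. Ribosomal protein genes took 1.69%, 1.16% and 1.52% of all counts at 2 days, 2.72%, 1.86% and 2.57% at 7 days, 1.13%, 1.57% and 1.42% at 14 days, and 1.49%, 1.39% and 1.41% at 6 weeks. Each 7-day library exceeded every library of the other ages, and replicate 2 was the lowest of the 7-day libraries. The means were 1.46% ± 0.27 at 2 days, 2.39% ± 0.46 at 7 days, 1.37% ± 0.22 at 14 days and 1.43% ± 0.049 at 6 weeks (SD, n = 3 each). After TMM normalization, which adjusts each library for a few very abundant genes, the summed level was 14913 ± 788 CPM at 2 days, 22081 ± 3562 CPM at 7 days, 13567 ± 1178 CPM at 14 days and 14993 ± 713 CPM at 6 weeks (SD, n = 3 each). Both subunits were highest at 7 days in their sums. The large-subunit sum was 12429 ± 1930 CPM at 7 days, against 8258 ± 361 CPM at 6 weeks (SD, n = 3 each). For the small subunit it was 9652 ± 1632 CPM at 7 days and 6735 ± 353 CPM at 6 weeks. No p-value is given for these sums, since the members were chosen as a family. In these bulk samples, a change in RNA per cell and a change in the share of cells of a type cannot be told apart.

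**Figure D1:**
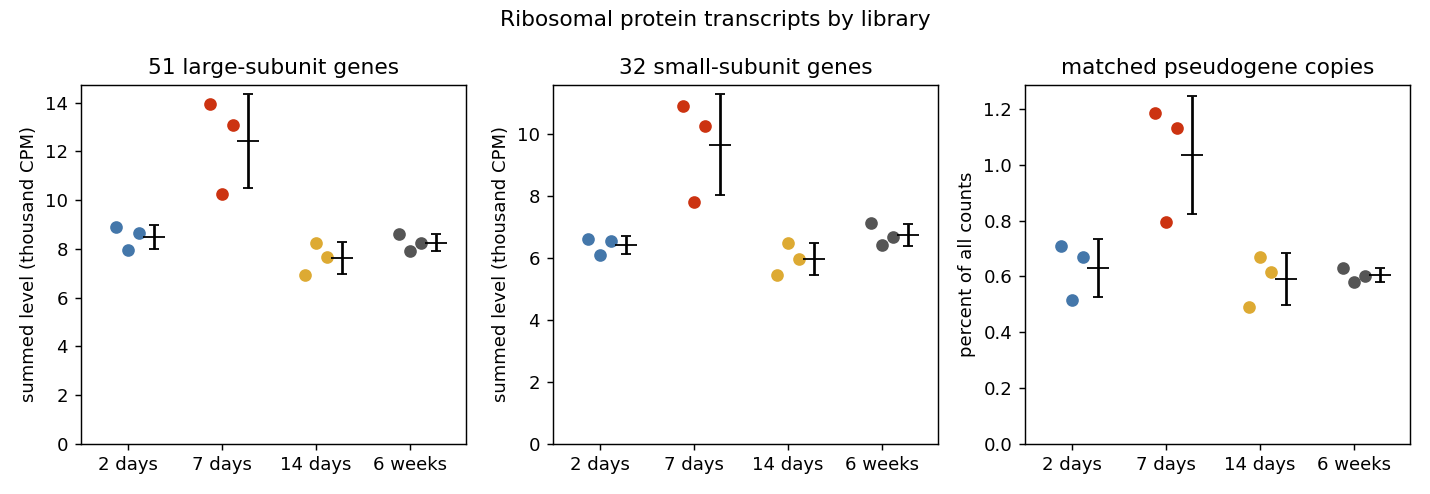
Summed level of the 51 large-subunit and 32 small-subunit genes in CPM, and the percent of all counts on matched pseudogene copies, by age. Points are libraries, and the bar beside them gives the mean and SD of 3 libraries. The 7-day libraries stand above those of every other age in all 3 panels, with replicate 2 the lowest of them.

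At 7 days most members were higher than at 6 weeks. In edgeR's quasi-likelihood test with Benjamini-Hochberg adjustment over all 15494 genes tested, 69 of 81 members rose and 2 fell at an adjusted p below 0.05, where 24.5% of all genes rose and 26.6% fell. The median difference of the members was 0.65 on the log2 scale (1.57-fold), against a median of -0.01 over all genes. All 3 libraries at 7 days lay above all 3 at 6 weeks for 66 members and below them for 2, where 34.3% and 35.6% of all genes were so placed. Of the 50 tested large-subunit genes 43 rose and 1 fell, with a median of 0.62 on the log2 scale, and of the 31 tested small-subunit genes 26 rose and 1 fell, with a median of 0.72. Without 7-day replicate 1 the count of members that rose was 58, and without 2-day replicate 2 it was 73.

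Rps18 (ENSMUSG00000008668, chr17:33951999-33956001 on the minus strand of GRCm38, in GENCODE M21) encodes a protein of the head of the small subunit. It overlaps Vps52, and strand use in counting is not given, so some reads may belong to that gene. Rps18 had 558, 339 and 517 CPM at 7 days, against 217, 213 and 211 CPM at 6 weeks. The 3 libraries at 7 days lay above all others, and the 6-week libraries were close to each other. Rps18 was 2.21-fold higher at 7 days (log2 fold change 1.14 ± 0.19 SE, adjusted p = 0.00032, edgeR). Rpl35 (ENSMUSG00000062997, chr2:39001580-39005624, minus strand) encodes a large-subunit protein near the exit of the tunnel for the growing chain, and it overlaps Arpc5l and Wdr38. It had 210, 111 and 206 CPM at 7 days, against 79.7, 67.3 and 71.9 CPM at 6 weeks. It was 2.41-fold higher at 7 days (log2 fold change 1.27 ± 0.20 SE, adjusted p = 0.00027, edgeR), and the groups did not overlap. Rpl36a, another large-subunit protein, had 160.0, 93.1 and 169 CPM at 7 days, against 62.1, 59.99 and 63.5 CPM at 6 weeks. It was 2.27-fold higher (log2 fold change 1.19 ± 0.20 SE, adjusted p = 0.00039, edgeR), again with no overlap.

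The ribosomal stalk, the flexible arm of the large subunit that calls in elongation factors, is built by Rplp0, Rplp1 and Rplp2. Rplp0 (ENSMUSG00000067274, chr5:115559467-115563727, plus strand) had 1211, 1013 and 1109 CPM at 7 days, against 723, 695 and 693 CPM at 6 weeks. It was 1.58-fold higher with no overlap of the libraries (log2 fold change 0.66 ± 0.14 SE, adjusted p = 0.0021, edgeR). Rplp1 had 610, 402 and 563 CPM at 7 days, against 478, 396 and 424 CPM at 6 weeks, and the groups overlapped (log2 fold change 0.28 ± 0.18 SE, adjusted p = 0.20, edgeR). Rplp2 had 298, 226 and 256 CPM at 7 days, against 210, 209 and 217 CPM at 6 weeks. All 7-day libraries were higher, but the test did not pass (log2 fold change 0.30 ± 0.14 SE, adjusted p = 0.11, edgeR). So 1 of the 3 stalk genes rose against 6 weeks, and all 3 rose against 2 days, where the difference between these comparisons was not tested. Against 2 days the log2 fold changes were 0.46, 0.56 and 0.49 for Rplp0, Rplp1 and Rplp2, with adjusted p of 0.017, 0.021 and 0.015 (edgeR). All 3 calls were lost without 7-day replicate 1, with adjusted p of 0.051, 0.070 and 0.055, and that of Rplp1 also without 7-day replicate 3 (0.053).

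Of the members whose human counterparts are linked to Diamond-Blackfan anaemia, 15 were tested and all 15 rose at 7 days against 6 weeks, with a median of 0.71 on the log2 scale. Among all tested members 69 of 81 rose, with a median of 0.65, and among all genes 24.5% rose. The calls of Rpl5 and Rps29 were each lost in 4 of 12 fits that left out 1 library. Increases in this set ran from 1.35-fold for Rps10 to 2.20-fold for Rpl31. Of the joint counts of gene and pseudogene copies, Rpl31 had 1.99% on its own gene. Rps19, the member most often affected in that disease, had 369, 269 and 323 CPM at 7 days, against 190, 165 and 181 CPM at 6 weeks. It was 1.79-fold higher with no overlap (log2 fold change 0.84 ± 0.17 SE, adjusted p = 0.0016, edgeR). Rpl11, which with Rpl5 can bind and restrain Mdm2, the ligase that degrades p53, was 1.75-fold higher (log2 fold change 0.80 ± 0.14 SE, adjusted p = 0.00057, edgeR), with 182, 130 and 181 CPM at 7 days, against 94.0, 103 and 84.9 CPM at 6 weeks. Rps26, a small-subunit protein at the exit of the messenger RNA, had 297, 198 and 276 CPM at 7 days, against 136, 122 and 134 CPM at 6 weeks. It was 1.97-fold higher with no overlap (log2 fold change 0.98 ± 0.15 SE, adjusted p = 0.00024, edgeR).

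Among the abundant members, Rpl13a, a large-subunit protein, had 1108, 735 and 1029 CPM at 7 days, against 623, 535 and 609 CPM at 6 weeks. It was 1.63-fold higher (log2 fold change 0.70 ± 0.16 SE, adjusted p = 0.0029, edgeR), and its lowest 7-day library, replicate 2, still lay above all 6-week libraries. Rpsa, the small-subunit protein also known as a laminin receptor, had 638, 456 and 621 CPM at 7 days, against 319, 314 and 283 CPM at 6 weeks, and was 1.87-fold higher (log2 fold change 0.91 ± 0.19 SE, adjusted p = 0.0015, edgeR), again with no overlap. Per kilobase of transcript, the most abundant members after Rps9 were Rplp1, with 716, 1052, 515 and 867 CPM per kilobase at 2 days, 7 days, 14 days and 6 weeks, and Rpl13a, with 575, 915, 474 and 562.

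**Figure D2:**
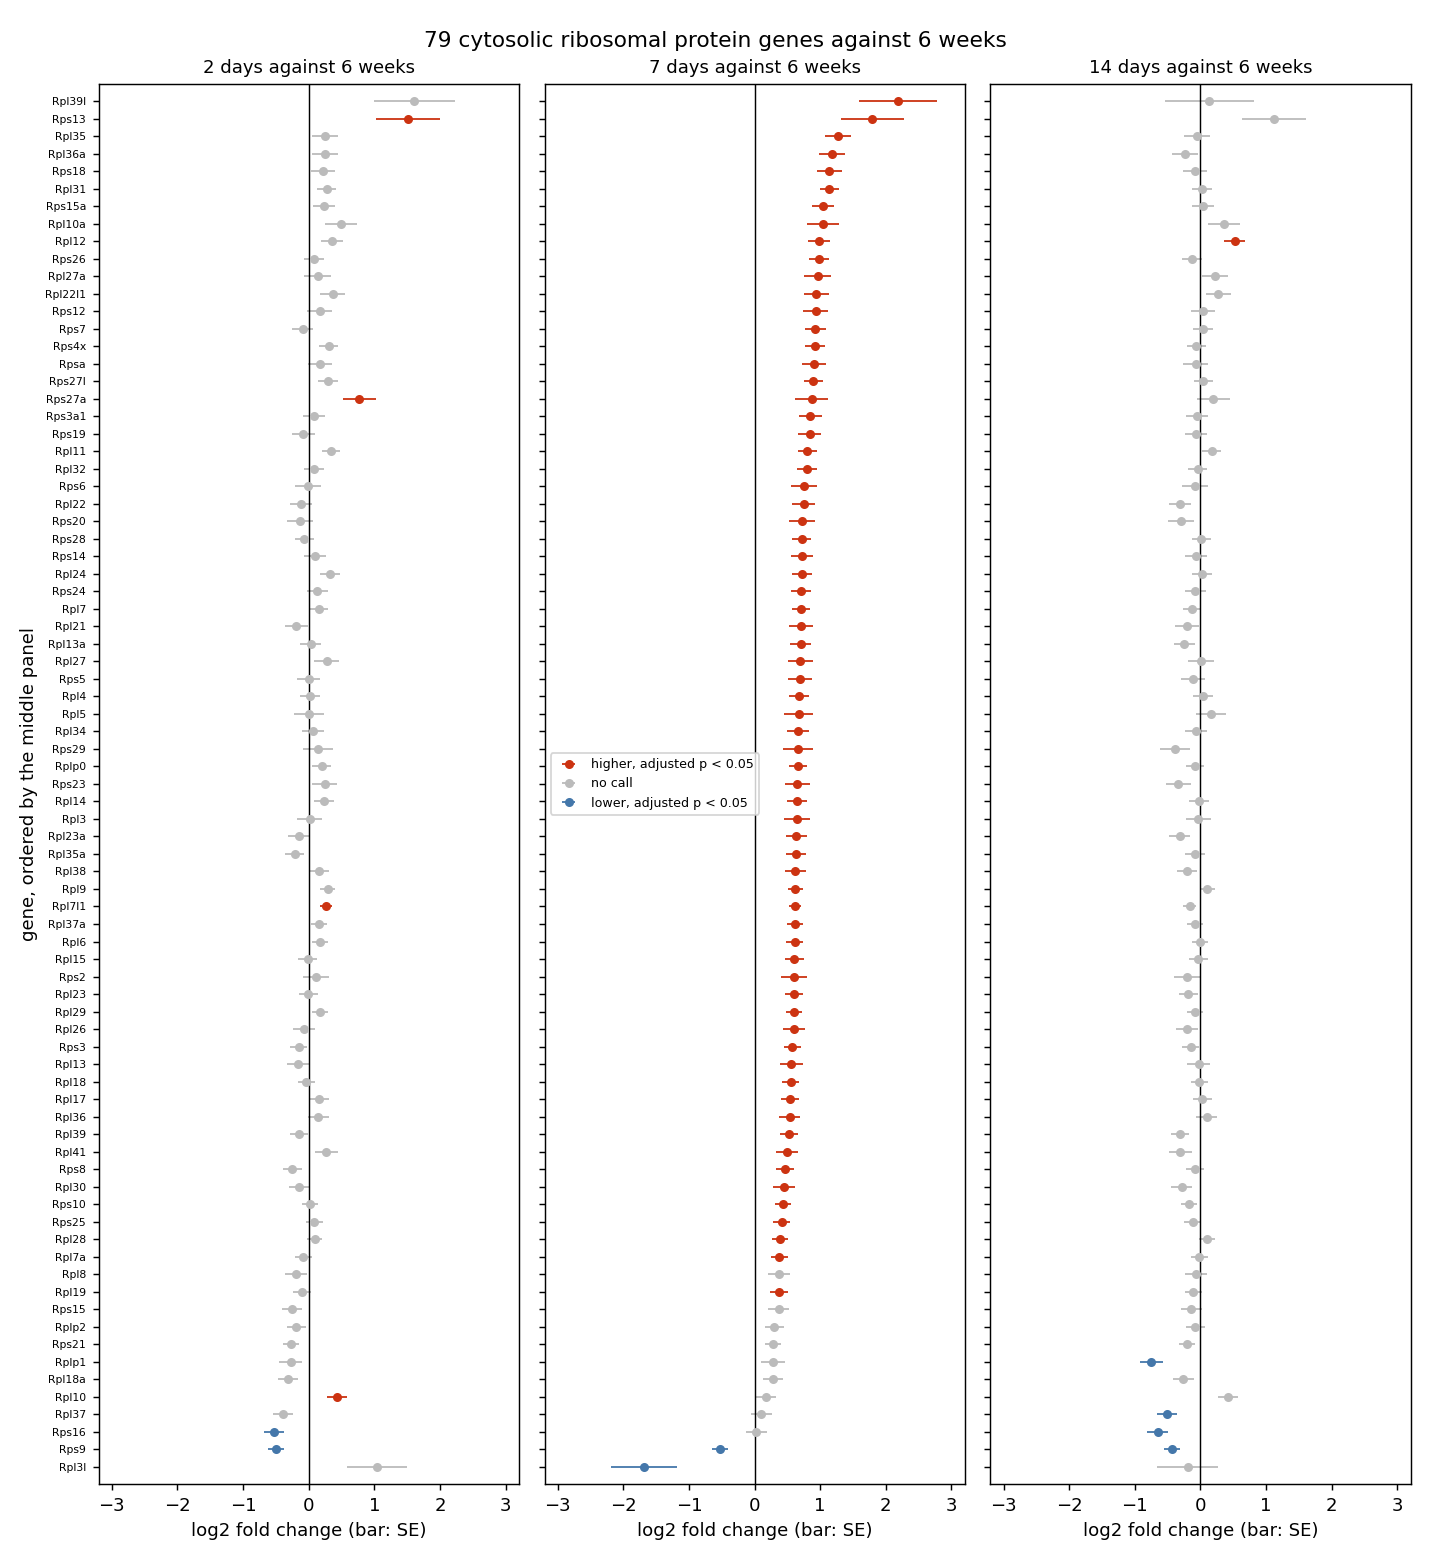
Log2 fold change of 79 of the tested members at 2 days, 7 days and 14 days against 6 weeks, with bars of 1 SE from the edgeR fit on 3 libraries per age. In the middle panel 68 members are marked higher and 2 lower. The panel for 2 days marks 4 higher and 2 lower, and that for 14 days marks 1 higher and 4 lower.

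Rps9 and Rpl3l were the 2 members lower at 7 days than at 6 weeks. Rps9 (ENSMUSG00000006333, chr7:3703993-3706897, plus strand), a small-subunit protein whose counterpart in budding yeast affects decoding accuracy, was the most abundant member per transcript length at 2 days, 7 days, 14 days and 6 weeks, with 1308, 1291, 1366 and 1852 CPM per kilobase. It had 1016, 931 and 961 CPM at 7 days, against 1534, 1233 and 1406 CPM at 6 weeks, and the groups did not overlap. Rps9 was 1.43-fold lower at 7 days (log2 fold change -0.52 ± 0.12 SE, adjusted p = 0.0036, edgeR), and it was also lower at 2 days and at 14 days against 6 weeks. As a share of the family's counts it made up 4.45% ± 0.61 at 7 days and 9.26% ± 0.58 at 6 weeks (SD, n = 3 each). Its matched pseudogene copy had 0 counts. Rpl3l, a paralog of Rpl3 found mainly in heart and skeletal muscle, had 0.51, 0.42 and 0.70 CPM at 7 days, against 2.01, 1.16 and 2.13 CPM at 6 weeks. This rests on 65 counts at 7 days and 194 counts at 6 weeks over 3 libraries each. Rpl3l was 3.21-fold lower at 7 days (log2 fold change -1.68 ± 0.50 SE, adjusted p = 0.014, edgeR), and the call was lost without 7-day replicate 2 (-1.53, adjusted p = 0.053).

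The other 10 tested members passed in neither direction against 6 weeks. Their log2 fold changes ran from 0.03 for Rps16 to 0.38 for Rpl8. They included Rpl37 (0.10) and Rpl10 (0.17), whose shares of the family were 0.277% ± 0.011 and 0.408% ± 0.12 at 7 days, and 0.377% ± 0.038 and 0.516% ± 0.073 at 6 weeks (SD, n = 3 each). Shares of the family do not depend on how libraries are scaled. They add up to the whole family, so a smaller share of an abundant member such as Rps9 raises the shares of the others. At 7 days against 6 weeks, 28 members had a larger share in all 3 libraries, 15 had a smaller share in all 3, and 38 overlapped. At 14 days against 6 weeks 22 had a larger and 5 a smaller share, and at 2 days against 6 weeks 19 and 10. Such shares exist for members only, so no share over all genes stands beside these counts. Rps18 made up 2.11% ± 0.20 of the family at 7 days and 1.43% ± 0.053 at 6 weeks, and Rpl35 made up 0.782% ± 0.14 and 0.486% ± 0.019 at those ages.

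**Figure D3:**
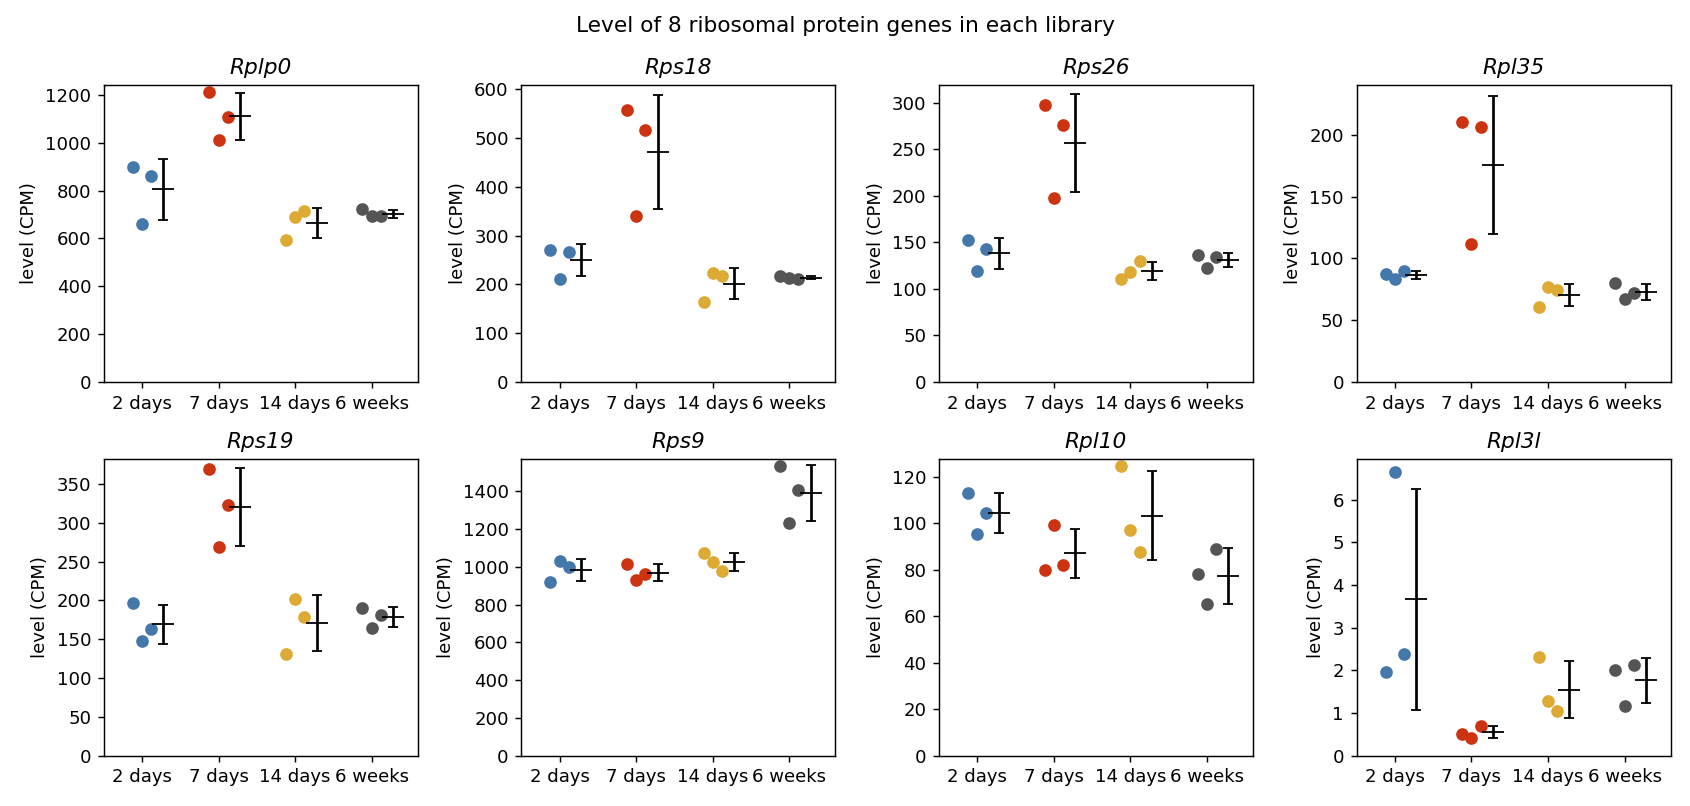
Level of 8 members in CPM by age. Points are libraries, and the bar gives the mean and SD of 3 libraries. Rplp0, Rps18, Rps26, Rpl35 and Rps19 are highest in the 7-day libraries, Rps9 is highest in the 6-week libraries, Rpl10 overlaps between neighbouring ages, and Rpl3l is lowest at 7 days.

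The 7-day libraries were also higher than the 2-day libraries in most members. Of 81 members 67 rose and 1 fell, where 22.9% and 25.8% of all genes did, and the median of the members was 0.59 on the log2 scale (1.51-fold). All 3 libraries at 7 days lay above all 3 at 2 days for 61 members and below them for 1, where 27.4% and 27.7% of all genes were so placed. Rpl35 had 210, 111 and 206 CPM at 7 days, against 87.3, 83.5 and 89.5 CPM at 2 days, a 2.03-fold increase (log2 fold change 1.02 ± 0.20 SE, adjusted p = 0.0013, edgeR). Rps7, a small-subunit protein linked to Diamond-Blackfan anaemia, had 158, 114 and 168 CPM at 7 days, against 80.8, 66.4 and 69.7 CPM at 2 days, a 2.03-fold increase (log2 fold change 1.02 ± 0.16 SE, adjusted p = 0.00028, edgeR). For both genes the groups did not overlap, and Rps7 had 24.2% of the joint counts of gene and pseudogene copies on its own gene. Rpl3l was the member that fell, with 0.51, 0.42 and 0.70 CPM at 7 days, against 1.97, 6.65 and 2.38 CPM at 2 days. It was 6.62-fold lower at 7 days (log2 fold change -2.73 ± 0.50 SE, adjusted p = 0.00085, edgeR), and 2-day replicate 2 stood above its partners. This comparison and the previous one share the 7-day libraries. Without 7-day replicate 1 the count of members that rose was 53.

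The 14-day libraries were lower than the 7-day libraries in most members. Of 81 members 73 fell and 1 rose at 14 days against 7 days, where 21.9% of all genes fell and 24% rose, with a median of -0.72 on the log2 scale. All 3 libraries at 14 days lay below all 3 at 7 days for 75 members and above them for 1, where 31.7% and 32.2% of all genes were so placed. Rpl36a had 42.3, 62.3 and 52.3 CPM at 14 days, against 160.0, 93.1 and 169 CPM at 7 days. It was 2.69-fold lower at 14 days with no overlap (log2 fold change -1.43 ± 0.20 SE, adjusted p = 0.00015, edgeR). Rpl35 had 60.3, 76.9 and 74.9 CPM at 14 days, against 210, 111 and 206 CPM at 7 days, and was 2.49-fold lower (log2 fold change -1.32 ± 0.20 SE, adjusted p = 0.00029, edgeR). Rplp1 fell to 209, 281 and 282 CPM at 14 days, against 610, 402 and 563 CPM at 7 days (log2 fold change -1.03 ± 0.18 SE, adjusted p = 0.00064, edgeR). Rpl3l, the member that rose, had 2.31, 1.28 and 1.05 CPM at 14 days, against 0.51, 0.42 and 0.70 CPM at 7 days (log2 fold change 1.49 ± 0.50 SE, adjusted p = 0.029, edgeR). That call was lost without 14-day replicate 1 (1.08, adjusted p = 0.13), without 7-day replicate 1 (1.41, adjusted p = 0.085) and without 7-day replicate 2 (1.33, adjusted p = 0.092).

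At the remaining ages few members differed. Against 6 weeks, 4 members rose and 3 fell at 2 days, where 20.7% and 19.7% of all genes did, and the median of the members was 0.08. At 14 days 1 member rose and 4 fell against 6 weeks, where 9.68% and 9.26% of all genes did, with a median of -0.08. Between 14 and 2 days, 0 members rose at 14 days and 3 fell, where 12.8% and 12.3% of all genes did, with a median of -0.15. At an unadjusted p below 0.05 in edgeR, 0 members were higher at 14 days and 11 lower, where 18.4% and 18.8% of all genes were, and DESeq2 called 0 members higher. The shares of members called were below those of all genes in each of these comparisons. All 3 libraries lay above all 3 of the other age for 14 members at 2 days against 6 weeks (24% of all genes), 3 at 14 days against 6 weeks (22.2%) and 0 at 14 days against 2 days (16.9%). They lay below for 9 (23.3%), 14 (21.9%) and 16 (16.5%). A joint test over the 4 ages called 80 of 81 members, where 69.2% of all genes were called, and Rpl10 was the member not called (adjusted p = 0.067, edgeR).

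The members that fell at 2 days against 6 weeks included Rps9 and Rps16, both of the small subunit. Rps9 had 920, 1030 and 997 CPM at 2 days, against 1534, 1233 and 1406 CPM at 6 weeks (log2 fold change -0.50 ± 0.12 SE, adjusted p = 0.0060, edgeR), with no overlap. Rps16 had 90.9, 79.0 and 62.3 CPM at 2 days, against 120.3, 92.6 and 123 CPM at 6 weeks (log2 fold change -0.53 ± 0.15 SE, adjusted p = 0.015, edgeR). Its call was lost without 2-day replicate 3 (adjusted p = 0.063), 6-week replicate 1 (0.055) or 6-week replicate 3 (0.065). The members that rose were Rps13, Rps27a, Rpl10 and Rpl7l1. Rps27a, which encodes ubiquitin fused to a small-subunit protein, had 84.6, 201.9 and 136 CPM at 2 days, against 87.0, 85.2 and 75.3 CPM at 6 weeks. Its groups overlapped, and its log2 fold change of 0.77 ± 0.25 SE (adjusted p = 0.028, edgeR) became 0.42 (adjusted p = 0.10) without 2-day replicate 2. Rpl10, an X-linked large-subunit protein that in budding yeast is added late in ribosome assembly, had 113, 95.6 and 104 CPM at 2 days, against 78.0, 65.2 and 89.2 CPM at 6 weeks (log2 fold change 0.43 ± 0.16 SE, adjusted p = 0.043, edgeR), and lost its call in 7 of 12 fits that left out 1 library. Rpl7l1, a paralog of Rpl7, had 57.7, 70.6 and 65.3 CPM at 2 days, against 51.3, 55.5 and 54.5 CPM at 6 weeks (log2 fold change 0.26 ± 0.096 SE, adjusted p = 0.045, edgeR), and lost its call in 10 of 12.

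Rplp1, Rps16, Rpl37 and Rps9 fell at 14 days against 6 weeks. Rplp1 had 209, 281 and 282 CPM at 14 days, against 478, 396 and 424 CPM at 6 weeks, and the groups did not overlap. Rplp1 was 1.68-fold lower at 14 days (log2 fold change -0.75 ± 0.18 SE, adjusted p = 0.012, edgeR), while Rplp0 and Rplp2 had log2 fold changes of -0.08 ± 0.14 and -0.08 ± 0.14 SE. The difference between the stalk genes was not tested, and the Rplp1 call was lost without 6-week replicate 1 (-0.67, adjusted p = 0.051). Rps9 fell to 1073, 1027 and 978 CPM at 14 days, against 1534, 1233 and 1406 CPM at 6 weeks (log2 fold change -0.44 ± 0.12 SE, adjusted p = 0.025, edgeR), and lost its call in 4 of 12 fits that left out 1 library. Rps16 had 66.4, 79.3 and 68.0 CPM at 14 days, against 120.3, 92.6 and 123 CPM at 6 weeks (log2 fold change -0.65 ± 0.15 SE, adjusted p = 0.012, edgeR), with the call lost without 6-week replicate 1 (adjusted p = 0.051) or replicate 3 (0.057). Rpl37, a large-subunit protein, had 42.0, 44.1 and 33.4 CPM at 14 days, against 64.6, 54.9 and 50.2 CPM at 6 weeks (log2 fold change -0.51 ± 0.15 SE, adjusted p = 0.037, edgeR), and lost it in 7 of 12. Against 2 days, Rpl41, the smallest ribosomal protein, had 252, 271 and 230.0 CPM at 14 days and 342, 412 and 369 CPM at 2 days (log2 fold change -0.57 ± 0.17 SE, adjusted p = 0.027, edgeR), with no overlap. It lost its call in 4 of 12 fits. Rpl7l1 had 46.4, 47.1 and 50.3 CPM at 14 days, against 57.7, 70.6 and 65.3 CPM at 2 days (log2 fold change -0.43 ± 0.096 SE, adjusted p = 0.0062, edgeR), and kept its call in all 12.

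Paralogs, second genes that can replace a core ribosomal protein in some tissues, were set beside their partners. Rpl22l1, the paralog of Rpl22, had 26.3, 17.3 and 31.9 CPM at 7 days, against 12.8, 13.9 and 12.8 CPM at 6 weeks. It was 1.92-fold higher (log2 fold change 0.94 ± 0.19 SE, adjusted p = 0.0015, edgeR), and Rpl22 was 1.68-fold higher in the same comparison (log2 fold change 0.75 ± 0.17 SE, adjusted p = 0.0029, edgeR). Rps27l, the paralog of Rps27 that is a target of p53, was 1.86-fold higher at 7 days (log2 fold change 0.90 ± 0.15 SE, adjusted p = 0.00037, edgeR), with 19.3, 14.4 and 19.1 CPM at 7 days, against 10.8, 8.10 and 9.40 CPM at 6 weeks. In both paralogs the 7-day libraries lay above all 6-week libraries. Rpl39l, a paralog of Rpl39 expressed mainly in the testis, had 0.32, 0.45 and 0.63 CPM at 7 days, against 0.14, 0.11 and 0.055 CPM at 6 weeks, which is 55 counts at 7 days and 11 counts at 6 weeks over 3 libraries each. Its log2 fold change of 2.18 ± 0.60 SE (adjusted p = 0.0088, edgeR) was the widest increase of any tested member in this comparison and rests on these few reads. Its fall at 14 days against 7 days (log2 fold change -2.05 ± 0.59 SE, adjusted p = 0.013, edgeR) was not called without 7-day replicate 3 (adjusted p = 0.055). Rpl10l had counts in 1 library of 14 days only.

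A large part of the reads was recorded on pseudogenes. Ribosomal protein messages have many processed pseudogenes, copies of the message pasted back into the genome without introns, and reads from a near-identical copy cannot be assigned with certainty. Copies were matched to members by sequence, at 80% identity or more over at least 60% of the shorter transcript. Pseudogene copies took 0.631% ± 0.10 of all counts at 2 days, 1.04% ± 0.21 at 7 days, 0.591% ± 0.093 at 14 days and 0.605% ± 0.024 at 6 weeks (SD, n = 3 each), the same order of ages as the members. Of 83 members, 24 had under 50% of the joint counts of gene and copies on their own gene, and for 23 of these 24 the copy with most counts was at least 99% identical to the member. Another 45 members had 90% or more on their own gene. Only annotated pseudogenes and Rps27rt entered as copies in these shares. Rpl36al, annotated as protein-coding, matched Rpl36a at 87.7% identity over 68.7% of the shorter transcript and was not counted as a copy. Gm2000, annotated as protein-coding, also matched Rpl35 at 99.6% identity, with 34683 counts beside 45917 on Rpl35. With Gm2000 counted as a copy, Rpl35 had 56.9% on its own gene and 44 members had 90% or more. Gm2000 had 156, 91.2 and 139 CPM at 7 days, against 58.5, 60.01 and 60.7 CPM at 6 weeks, and was 2.15-fold higher with no overlap (log2 fold change 1.11 ± 0.16 SE, adjusted p = 0.00015, edgeR).

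Rps27, the small-subunit protein with 0 counts, shows this most fully. The retrogene Rps27rt on chromosome 9 held 118845 counts, and the coding sequence of the Rps27 gene on chromosome 3 is identical to it over all 255 bases. The first 90 coding bases of both genes and of Rps27l, which lies on chromosome 9 and was counted apart, are given here because they show which copies short reads can separate. Capitals mark bases of Rps27l that differ from Rps27, 24 in this stretch and 61 over the coding sequence, from the GENCODE M21 transcripts.
Rps27: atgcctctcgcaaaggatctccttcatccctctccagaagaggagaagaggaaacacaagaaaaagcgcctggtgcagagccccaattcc
Rps27rt: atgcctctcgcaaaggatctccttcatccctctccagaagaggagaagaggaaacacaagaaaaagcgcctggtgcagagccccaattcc
Rps27l: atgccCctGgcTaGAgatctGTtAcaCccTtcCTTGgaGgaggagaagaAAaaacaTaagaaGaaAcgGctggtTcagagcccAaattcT
Rps27rt had 353, 263 and 347 CPM at 7 days, against 304, 222 and 287 CPM at 6 weeks, and the groups overlapped (log2 fold change 0.24 ± 0.17 SE, adjusted p = 0.25, edgeR).

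Other members were split in the same way. Rps13, of the small subunit, had 0.709% of its joint counts on its own gene and the rest mostly on Rps13-ps2, which is 100% identical. On its own gene Rps13 had 2.13, 2.99 and 1.73 CPM at 7 days, against 0.95, 0.48 and 0.55 CPM at 6 weeks, a 3.47-fold increase (log2 fold change 1.80 ± 0.48 SE, adjusted p = 0.0082, edgeR). Its call at 2 days against 6 weeks was lost in 3 of 12 fits that left out 1 library, with adjusted p up to 0.093. Rps13-ps2 had 227, 201 and 219 CPM at 7 days, against 173, 166 and 179 CPM at 6 weeks, and with the copies added the log2 fold change of Rps13 was 0.36 (adjusted p = 0.010, edgeR). Rpl5, a large-subunit protein that carries 5S RNA into the ribosome, had 1.32% on its own gene, and its copy Gm15500 had 539, 412 and 544 CPM at 7 days, against 307, 288 and 295 CPM at 6 weeks. With copies added, Rpl5 rose by 0.76 on the log2 scale (adjusted p = 0.00081, edgeR), beside 0.67 on its own gene, where the call was lost in 4 of 12 such fits (adjusted p up to 0.0996). Rpl31 had 1.99% on its own gene, with log2 fold changes of 1.14 alone and 0.97 with its copies. Rps6, the small-subunit protein phosphorylated downstream of mTORC1, had 5.10% on its own gene, with 0.75 alone and 0.65 with its copies.

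**Figure D4:**
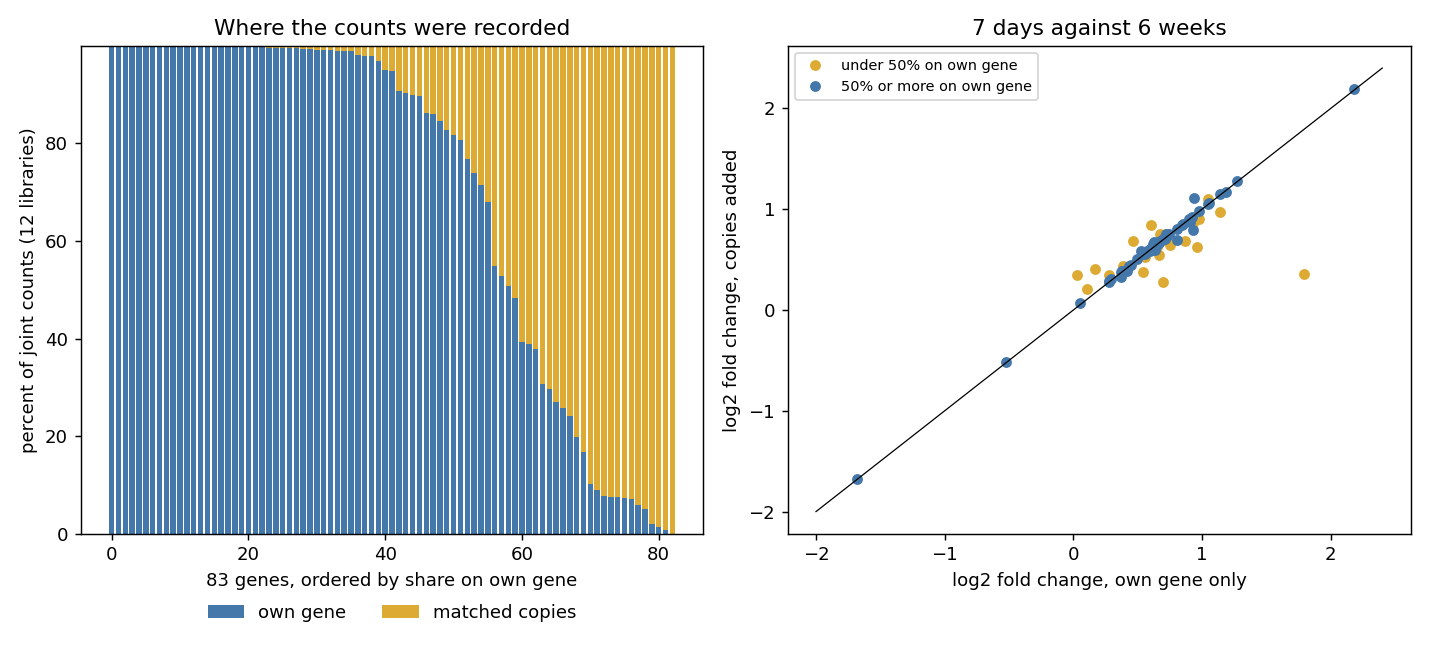
Left, for each of the 83 members, the percent of the joint counts of 12 libraries recorded on the gene itself and on its matched copies, Gm2000 and Rpl36al not included. Right, log2 fold change at 7 days against 6 weeks from the gene alone and with its copies added, with the line of equality. The 24 members with under 50% on their own gene make up the right part of the left panel, and the point far below the line is Rps13, at 1.80 alone and 0.36 with copies.

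Adding the copies to their members, an alternative chosen after seeing the data, let 82 members be tested, with Rps27 now among them. At 7 days against 6 weeks, 69 of these 82 rose and 2 fell. Rpl19 and Rpl27 lost their calls, and Rpl10 and Rps16 gained them. Gm2000 was not among the copies here, so Rpl35 was among the 44 tested members with 90% or more on their own gene. Of these 44, 36 rose and 2 fell, with a median of 0.63. For the 23 tested members with under 50%, 19 rose, with a median of 0.66. Between 7 and 2 days 72 rose and 1 fell with copies added, and between 14 and 7 days 1 rose and 77 fell. For 2 days against 6 weeks the calls of Rpl10, Rps13 and Rps16 were lost, with log2 fold changes of 0.13, 0.03 and -0.27 in place of 0.43, 1.51 and -0.53. For 14 days against 6 weeks the calls of Rps16 and Rpl12 were lost, and Rpl12, which on its own gene had a log2 fold change of 0.52 ± 0.17 SE (adjusted p = 0.046, edgeR), stood at -0.20 with its copies. In the comparison of 14 days with 2 days, Rps23, which lost its call in 9 of 12 fits that left out 1 library, had a log2 fold change of -0.58 alone (adjusted p = 0.045, edgeR) and -0.34 with its copies (adjusted p = 0.081, edgeR).

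Most members shared 1 pattern across the libraries. The correlation of each member's log2 level with the median of the members had a median of 0.93 over the 81 members and 12 libraries, and was above 0.9 for 45. It is a description only, since members share libraries and depth. The lowest values were those of Rpl3l (-0.62), Rps9 (-0.33) and Rpl10 (-0.29), followed by Rps13 (0.50) and Rps27a (0.57). These levels leave out pseudogene copies. Of the joint counts of gene and copies, Rpl10 had 39.4% on its own gene and Rps13 had 0.709%. With copies added, Rpl10 rose by 0.41 on the log2 scale at 7 days against 6 weeks (adjusted p = 0.0087, edgeR). Among 7773 other genes of at least 10 CPM on average, the 5 most like the family's median were Gm2000 (0.98), Rpl36al (0.97), Snrpd2 (0.97), Nop10 (0.97) and Hint1 (0.96). Reads of Gm2000 and Rpl35 may be divided between the 2 genes, as given above. Rpl36al encodes a near-copy of Rpl36a that the rule left out, Snrpd2 a core protein of the splicing machinery, Nop10 a protein of the particles that modify ribosomal RNA, and Hint1 a nucleotide hydrolase.

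Other genes of the ribosome and of translation were set beside the members for 7 days against 6 weeks, where 24.5% of all genes rose and 26.6% fell. Of 7 genes tied to the ribosome but outside the rule, 3 rose and 1 fell. Rack1, a scaffold protein on the small subunit, had 642, 499 and 581 CPM at 7 days, against 387, 355 and 360 CPM at 6 weeks (log2 fold change 0.64 ± 0.17 SE, adjusted p = 0.0084, edgeR), with no overlap. Fau, which encodes a small-subunit protein fused to a ubiquitin-like one, had 60.8, 58.9 and 70.5 CPM at 7 days, against 97.8, 66.7 and 99.2 CPM at 6 weeks, and fell although its groups overlapped (log2 fold change -0.47 ± 0.15 SE, adjusted p = 0.022, edgeR). Of 45 ribosome biogenesis factors, which process ribosomal RNA and assemble the subunits, 25 rose, with a median of 0.67. Npm1, a nucleolar chaperone of ribosome assembly, had 250.5, 197 and 257 CPM at 7 days, against 67.8, 62.3 and 71.5 CPM at 6 weeks, a 3.49-fold increase with no overlap (log2 fold change 1.80 ± 0.18 SE, adjusted p = 1e-05, edgeR). Among initiation factors 16 of 27 rose, and among elongation factors and other genes with an oligopyrimidine tract 11 of 18 rose. Of 77 mitochondrial ribosomal proteins, which form the separate ribosome of that organelle, 33 rose and 4 fell, with a median of 0.41. Against 7 days, 29 biogenesis factors fell at 14 days, and 2 mitochondrial ribosomal proteins rose and 32 fell, where 24% of all genes rose and 21.9% fell. The regulators of oligopyrimidine messages, which act through mTORC1 and La-related proteins, had 5 of 20 higher and 6 of 20 lower at 7 days against 6 weeks, shares near those of all genes.

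Genes of other cells and states moved with the family at 7 days. Of 14 erythroid markers all 14 rose at 7 days against 6 weeks, 13 rose against 2 days and all 14 fell at 14 days against 7 days. Of all genes, 24.5% rose at 7 days against 6 weeks, 22.9% rose against 2 days, and 21.9% fell at 14 days against 7 days. The erythroid sum was 525 to 994 CPM at 2 days, 3983 to 6686 CPM at 7 days, 119 to 412 CPM at 14 days and 212 to 676 CPM at 6 weeks. Within 7 days it was 6686, 3983 and 6137 CPM in replicates 1, 2 and 3. Replicate 2, lowest in ribosomal proteins, was also lowest in the sums of erythroid, B cell, T and NK cell, granulocyte progenitor, proliferation and heat-shock genes. In eosinophil and dendritic cell markers it was the lowest too. In neutrophil, mast cell and basophil, and stromal and endothelial markers it was the highest. It lay between the other 7-day libraries in plasma cell, monocyte and macrophage, and megakaryocyte and platelet markers. The 14 proliferation genes summed to 416 to 812 CPM at 2 days, 1879 to 2042 CPM at 7 days, 1071 to 1128 CPM at 14 days and 508 to 734 CPM at 6 weeks. The 11 heat-shock genes all rose at 7 days against 6 weeks, and their sum was 1543 to 2397 CPM at 2 days, 33151 to 38254 CPM at 7 days, 1304 to 1383 CPM at 14 days and 1393 to 1681 CPM at 6 weeks. No gene of these 3 lists was at 0 in an age group.

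Markers of other cells differed as well. Of 10 granulocyte progenitor markers, 6 rose and 1 fell at 7 days against 6 weeks, and 1 rose and 6 fell at 14 days against 7 days. Of all genes, 24.5% rose and 26.6% fell in the first of these comparisons, and 24% rose and 21.9% fell in the second. The progenitor markers summed to 294 to 699 CPM at 2 days, 347 to 478 CPM at 7 days, 187 to 250.9 CPM at 14 days and 150 to 195 CPM at 6 weeks. The ranges at 2 days and 7 days overlapped. At 7 days against 2 days 1 progenitor marker rose and 3 fell, where 22.9% and 25.8% of all genes did. Kit stood both in this list and in that of mast cell and basophil markers. Between 7 and 2 days, 9 of 10 B cell markers, 8 of 12 monocyte and macrophage markers and 7 of 12 T and NK cell markers rose, and 9 of 9 mast cell and basophil markers fell. The B cell markers summed to 298 to 415 CPM at 2 days, 659 to 751 CPM at 7 days, 197 to 533 CPM at 14 days and 504 to 644 CPM at 6 weeks. The monocyte and macrophage markers summed to 875 to 1237 CPM at 2 days, 2195 to 2248 CPM at 7 days, 1321 to 1662 CPM at 14 days and 4170 to 4461 CPM at 6 weeks, and 9 of 12 fell at 7 days against 6 weeks. The T and NK cell markers summed to 55.8 to 66.0 CPM at 2 days, 96.3 to 125 CPM at 7 days, 45.8 to 95.2 CPM at 14 days and 106 to 125 CPM at 6 weeks. The mast cell and basophil markers summed to 2679 to 5120 CPM at 2 days, 108 to 128 CPM at 7 days, 30.3 to 40.3 CPM at 14 days and 19.9 to 35.2 CPM at 6 weeks, with 1 of 9 at 0 at 14 days and 1 of 9 at 6 weeks. The part of these cells, of dividing cells or of a heat-shock state in the ribosomal protein levels was not tested.

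**Figure D5:**
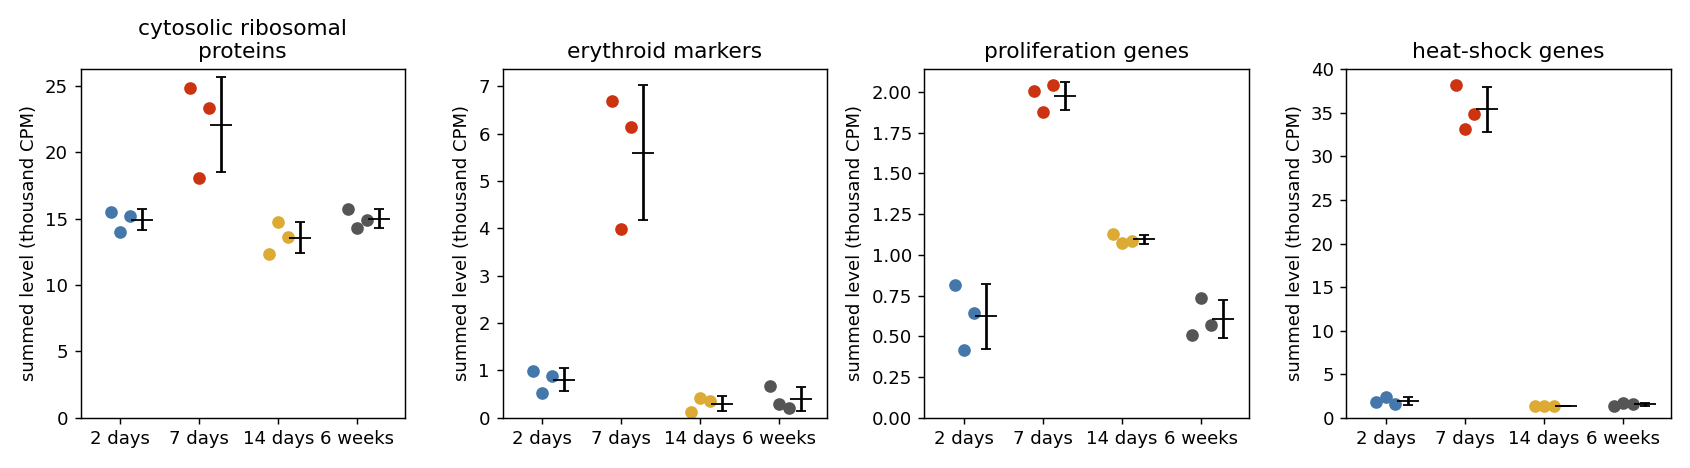
Summed level in CPM of the ribosomal protein genes, 14 erythroid markers, 14 proliferation genes and 11 heat-shock genes by age. Points are libraries, and the bar gives the mean and SD of 3 libraries. All 4 sums are highest in the 7-day libraries, and 7-day replicate 2 is the lowest of its group in each.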

How the data were processed

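The table the authors deposited gives counts as whole numbers, 1 column for each of the 12 libraries. RSEM 1.2.3, DESeq2 and mm10 are named without a role in the notes on processing, per the submitters' processing notes, so the deposited counts may be rounded estimates. Per the labels' protocols, cDNA was primed with random hexamers, and strand is not mentioned, so a gene and an overlapping or antisense gene may share reads. Genes were annotated with GENCODE M21. Copies were matched with blastn 2.17.0. Counts went into 1 model over 4 ages in edgeR 4.0.16 (R 4.3.3) with TMM factors, an expression filter with a minimum count of 10 and the quasi-likelihood test, with an adjusted p of 0.05 as threshold. The procedure was also tested on simulated data. CPM are counts scaled to the normalized library size. Alternatives were RLE factors, library totals, no filter, DESeq2 1.42.0, a replicate block and leaving out each library. Members and lists were chosen with earlier results of these data known. Members described in full are the 3 called with the widest change each way in each pair of ages, the 3 most and least abundant, and those in fixed lists of paralogs, stalk genes, disease-linked genes and other members. Rps18 was described although it met none of these rules. Some members' own results are not reported here, though the counts include them. No p-value was computed for sums or shares.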

Additional observations from a re-analysis of the deposited data

How the results depend on the processing

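The counts of members that rose or fell at 7 days, and of those that fell at 14 days against 7 days, stayed within 1.5 times of the reported ones under RLE factors, library totals, no filter, DESeq2 and the replicate block. Over fits that left out 1 library, 58 to 73 members rose and 1 to 2 fell at 7 days against 6 weeks, 53 to 73 rose and 1 fell at 7 days against 2 days, 0 to 1 rose and 64 to 77 fell at 14 days against 7 days, and the joint test called 65 to 81. The small counts moved. At 2 days against 6 weeks, 4 members rose, against 2 with no filter, 1 with the replicate block, 11 without 2-day replicate 2 and 14-day replicate 1, and 0 to 8 without 1 library. There, 3 members fell, against 1 with library totals and 1 to 4 without 1 library. Between 14 days and 6 weeks, 1 rose, against 0 with RLE factors, library totals, no filter or added copies, 2 without both of those libraries, and 0 to 2 without 1 library. There, 4 members fell, against 1 with library totals, 2 with the replicate block and 0 to 4 without 1 library. Between 14 and 7 days the count of 1 member that rose was 0 with the replicate block. Between 14 and 2 days 0 rose under every alternative run and 3 fell, against 6 with DESeq2 and 1 to 7 without 1 library. The replicate numbers gave no sign of paired libraries. The correlations of same-numbered libraries ran from -0.36 to 0.32, 3 of 18 were above 0.1, and 4 of 12 libraries correlated best with their own number. With 3 libraries per age, such a check cannot settle whether same-numbered libraries were handled together.

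The family's share of counts was 2.09%, 3.42%, 1.97% and 2.03% at 2 days, 7 days, 14 days and 6 weeks with copies included, and 2.86%, 1.62% and 1.67% at 7 days, 14 days and 6 weeks without the 20 most abundant genes. Without 1 library it was 1.34% to 1.61% at 2 days, 2.22% to 2.65% at 7 days, 1.28% to 1.49% at 14 days and 1.40% to 1.45% at 6 weeks. With library totals the median of all genes moved from -0.01 to 0.16 at 7 days against 6 weeks, and that of the members from 0.65 to 0.83. Rpl12 at 14 days against 6 weeks turned from 0.52 to -0.20 with its copies added. Of 2546 values of named members under alternatives, Rps18 not among them, 2387 kept their call and direction and 158 lost the call. Depth limits Rpl39l and Rpl3l, which have few counts. The cause was not tested for these changes.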
